A study of Mus musculus with 18 samples.

Results

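Genes of the lysosome, 34 in all, were followed in cultured mouse macrophages, and all 34 were found among the 22598 genes of each library and passed the filter on low counts. They were taken by symbol from a given list of known lysosomal genes, by a rule that sets no threshold on a measured value: 25 genes for hydrolases, their activators, lipid handling and progranulin, 7 for proteins of the lysosomal membrane and 2 for transcription factors. The cholesterol transporter Npc1, itself a membrane protein, was placed with lipid handling. The cells were bone-marrow-derived macrophages labelled WT, that is, macrophages grown in culture from mouse bone marrow, and RNA sequencing libraries were made at 18 h. There were 6 groups of 3 libraries: interferon-gamma (IFNg) with tumour necrosis factor (TNF, labelled TNF or TNFa), IFNg with interleukin-1 beta (IL1b), IFNg with lipopolysaccharide (LPS, from the outer membrane of bacteria), IFNg with hypoxia, IFNg alone and a control labelled ctrl. Every addition carried IFNg, so none of them was measured by itself, and below an addition is named alone. The labels give no dose, oxygen level, mouse strain, age or sex, and leave unstated whether replicates were different mice, different dishes or repeats of 1 preparation. The p-values therefore measure the spread between these libraries, which may be technical.

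The lysosome is the acidic compartment in which macrophages break down what they engulf and what their own autophagy delivers. Its hydrolases are made in the endoplasmic reticulum, tagged with mannose 6-phosphate and carried to the lysosome by receptors, and each cuts one kind of bond, so that loss of a single enzyme leaves its substrate undigested and can cause a storage disease. The transcription factors Tfeb and Tfe3 are held in the cytoplasm while nutrient signalling is active, and when released they switch on many lysosomal genes through a short promoter element built around the letters CACGTG.

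Promoter windows of the genes are shown first because that element is the shared control known for this compartment. RefSeq windows on build GRCm38.p6, from 250 bases before to 50 bases after each annotated start, were found for 31 of the 34 genes, and not for Galns, Asah1 and Npc1. The core CACGTG, which reads the same on both strands, stood in a window of 9 of these 31 genes (29.0%), against 8.09% of 27025 genes with a window. The same 9 genes held TCACGTG on one strand or the other, against 4.29% of all genes. They were Arsa, Cln3, Gaa, Gla, Glb1, Lamp1, Mcoln1, Naglu and Sgsh. The longer palindrome TCACGTGA, which contains both shorter motifs, was found in Cln3, Gla and Mcoln1 (9.68% against 1.12%). A match in any window of a gene counted, and Cln3, Ctns, Psap, Tfe3 and Tfeb had more than 1 window. Only the Cln3 window printed below held CACGTG, and its window at chr7:126585768-126586067 did not. A match describes these letters and is not a measured binding site. The windows of Cln3, Gla and Mcoln1 are printed for the longer palindrome, and that of Sgsh was added after its values were seen because Sgsh changed most. Capitals mark the CACGTG core, or the longer palindrome where it was present, which in Cln3 goes on matching for 1 more base at each end.
Cln3 (chr7:126583187-126583486, minus strand): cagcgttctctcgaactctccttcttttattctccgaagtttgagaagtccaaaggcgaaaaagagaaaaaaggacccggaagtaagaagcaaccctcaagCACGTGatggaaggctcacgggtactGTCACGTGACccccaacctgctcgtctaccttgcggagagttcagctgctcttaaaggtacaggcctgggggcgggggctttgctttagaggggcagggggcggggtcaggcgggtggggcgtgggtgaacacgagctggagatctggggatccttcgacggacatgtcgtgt
Gla (chrX:134600956-134601255, minus strand): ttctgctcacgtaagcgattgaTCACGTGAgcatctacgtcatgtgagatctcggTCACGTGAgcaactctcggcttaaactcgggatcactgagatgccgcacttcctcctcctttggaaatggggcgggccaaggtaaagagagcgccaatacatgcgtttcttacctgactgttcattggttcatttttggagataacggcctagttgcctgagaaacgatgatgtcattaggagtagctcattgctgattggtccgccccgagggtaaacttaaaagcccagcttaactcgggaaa
Mcoln1 (chr8:3500269-3500568, plus strand): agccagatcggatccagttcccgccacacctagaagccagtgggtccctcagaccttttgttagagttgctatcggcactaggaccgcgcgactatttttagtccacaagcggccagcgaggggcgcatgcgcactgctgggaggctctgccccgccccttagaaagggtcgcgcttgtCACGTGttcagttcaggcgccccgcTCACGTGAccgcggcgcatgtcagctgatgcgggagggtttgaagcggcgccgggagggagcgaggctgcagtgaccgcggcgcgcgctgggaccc
Sgsh (chr11:119355461-119355760, minus strand): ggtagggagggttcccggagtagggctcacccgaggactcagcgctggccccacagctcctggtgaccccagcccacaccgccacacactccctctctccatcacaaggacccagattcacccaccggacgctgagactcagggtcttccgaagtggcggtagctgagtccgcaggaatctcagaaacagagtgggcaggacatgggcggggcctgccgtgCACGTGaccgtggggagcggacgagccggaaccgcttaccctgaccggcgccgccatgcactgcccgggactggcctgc
These 4 genes did not respond alike. With TNF added to IFNg, Sgsh fell by 3.05 on the log2 scale and Gla rose by 0.81, while Cln3 (0.05) and Mcoln1 (0.04) did not pass the test. The other holders of the core split too in that comparison: Arsa and Glb1 fell, Gaa rose, and Lamp1 and Naglu did not pass.

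Libraries held 12270565 to 20952799 counts. Levels are given in CPM, each library's counts rescaled to a common total, with library sizes scaled by the trimmed mean of M-values (TMM), and calls are edgeR quasi-likelihood tests over 11563 genes with Benjamini-Hochberg adjustment and a threshold of 0.05. Rescaling to the totals that the deposited RPKM values imply shifted the whole table. The all-gene median of the log2 fold change then moved by -0.15 in the IFNg comparison with control. Against IFNg it moved by -0.32 (TNF), 0.00 (IL1b), -0.08 (LPS) and -0.25 (hypoxia), and between LPS and TNF by 0.24. Calls could depend on the scaling also for genes that moved by more than these shifts. With hypoxia against IFNg, Asah1 rose by 0.54 under TMM and did not pass with RPKM library totals (0.29). Each comparison below gives its counts under both. All 10 macrophage markers were detected. They summed to 19018 to 20452 CPM with TNF, 14340.2 to 15604 CPM with LPS, 17149 to 17814 CPM with hypoxia, 13838 to 15569 CPM with IFNg and 21798 to 27331 CPM in control. Of these 10, 2 rose and 5 fell with IFNg against control, and 3 rose and 5 fell with TNF against IFNg. Against IFNg, 3 rose and 0 fell with LPS, 4 rose and 0 fell with hypoxia, and 0 changed with IL1b. For LPS against TNF, 5 were higher and 3 lower. Some markers of other cells moved too. The 10 neutrophil and granulocyte precursor markers summed to 8.17 to 14.4 CPM with TNF, 22.3 to 35.8 CPM with LPS and 106.0 to 125 CPM with IFNg, and of the 8 tested 8 fell with TNF and 7 with LPS. Dendritic cell markers summed to 17.0 to 18.3 CPM with TNF, 22.8 to 33.5 CPM with LPS and 88.5 to 94.6 CPM with IFNg, against 2.38 to 4.04 CPM in control, and 1 of 5 fell with TNF and 1 with LPS against IFNg. Of 5 erythroid and megakaryocyte markers 3 had no counts anywhere, and the list summed to 49.7 to 71.4 CPM with hypoxia, against 21.8 to 28.5 CPM with IFNg, where 1 of 2 tested rose. T cell markers summed to at most 5.68 CPM in any library, with 3 of 5 at 0 everywhere. Fibroblast and stroma markers summed to at most 12.5 CPM in any library, with 1 of 4 tested higher with IFNg against control. The part of these cells in the lysosomal results was not tested. In bulk RNA a smaller number of cells of a type cannot be told apart from less RNA per cell.

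Some lysosomal genes were among the most abundant messages of the cells. On the authors' RPKM scale, which corrects for coding length, Psap averaged 4048 ± 489.6 with TNF, 5718 ± 525 with IL1b, 5569.9 ± 79.1 with LPS, 6887 ± 250.4 with hypoxia, 6081 ± 439 with IFNg and 4306 ± 216 in control (SD, n = 3 each). The order of the groups depends on the scaling. Under TMM Psap averaged 15485 ± 2041 CPM with TNF and 11878 ± 920 CPM in control. Psap encodes prosaposin, the precursor of the saposins that present sphingolipids to their hydrolases, and it ranked 2 to 8 of the 11563 tested genes by mean RPKM in the 6 groups. The median member stood at 46.6 RPKM with TNF, 60.7 with IL1b, 60.7 with LPS, 58.4 with hypoxia, 63.6 with IFNg and 72.6 in control. At the low end, Arsb averaged 12.6 ± 2.70 RPKM with IFNg, and Sgsh 1.77 ± 0.466 RPKM with TNF, where it ranked 8286. Together the 34 genes took 2.44 to 2.84% of all counts in TNF libraries, 3.88 to 4.24% with IL1b, 3.54 to 3.66% with LPS, 4.66 to 4.88% with hypoxia, 4.17 to 4.46% with IFNg and 3.78 to 4.07% in control. By this share the TNF libraries were lowest and the hypoxia libraries highest, and neither overlapped any other group. On the TMM scale their summed level was 28433 to 34546 CPM with TNF, which overlapped LPS (34362 to 37129 CPM) and control (31906 to 35228 CPM). The hypoxia libraries, at 50923 to 53738 CPM, still lay above IFNg (38143 to 42594 CPM). Psap, Grn and Lamp1 made up 60.7 to 71.3% of the members' counts in every library, so the share mostly follows these 3. Without them, the other 31 genes took 0.768 to 0.816% of counts with TNF, 1.26 to 1.31% with IL1b, 1.04 to 1.13% with LPS, 1.43 to 1.47% with hypoxia, 1.36 to 1.39% with IFNg and 1.41 to 1.49% in control.

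**Figure D1:**
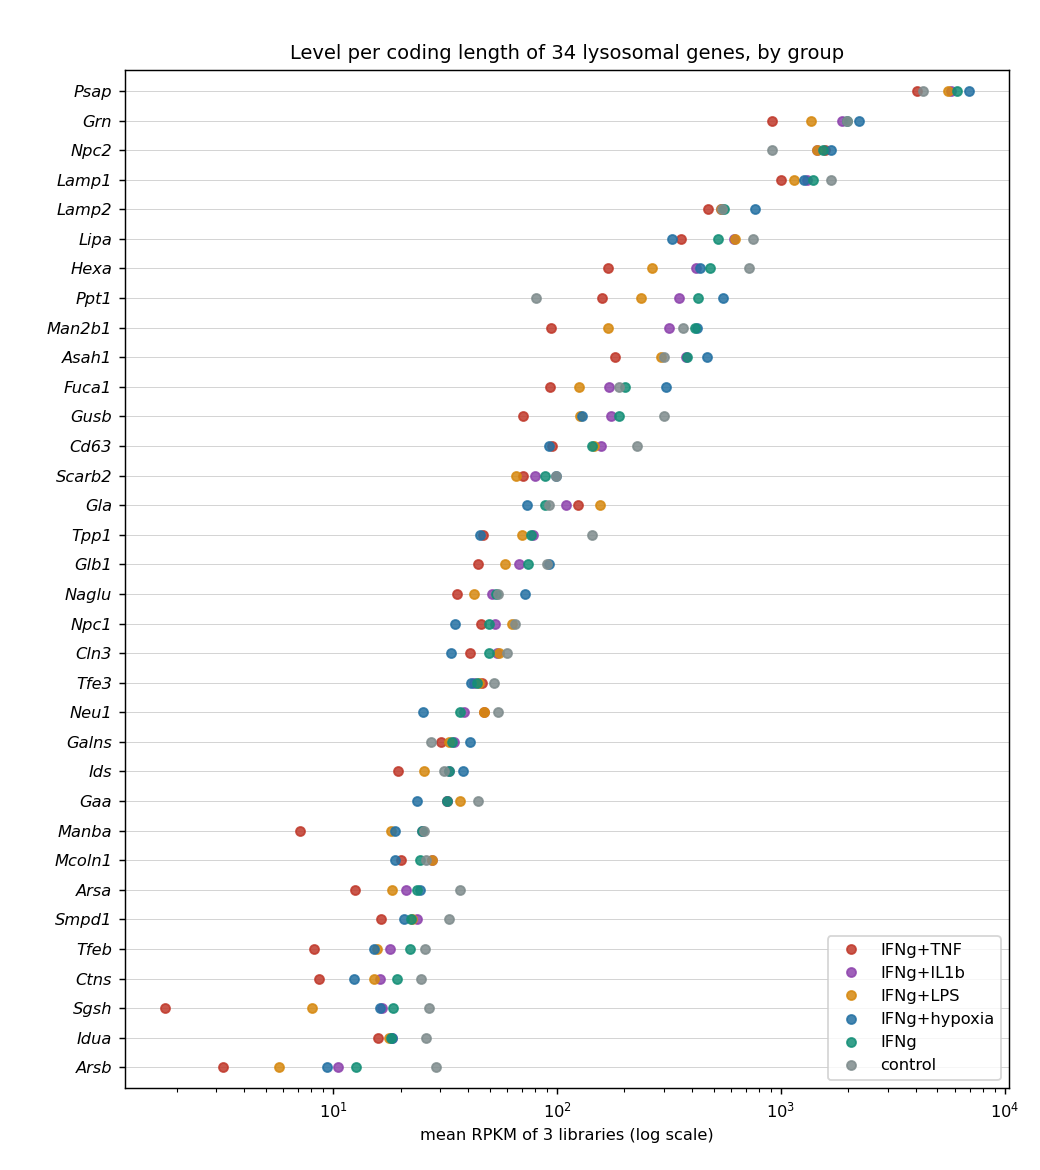
Mean RPKM of 3 libraries (log axis) for each of the 34 genes, ordered by the IFNg group; colours mark the 6 groups. Psap lies apart at 4048 to 6887 RPKM, and Sgsh with TNF is the lowest point at 1.77 RPKM.

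Whether the authors counted by strand is not stated, so overlapping genes could share reads. Coding bases overlapped exons of another gene for Arsb (19.7%, a noncoding gene on the opposite strand), Hexa (7.83%, Tmem202), Idua (7.31% and 3.53%, Slc26a1 and Dgkq), Lamp1 (5.91%, Grtp1), Glb1 (3.92%, Tmppe on the same strand) and Npc1 (2.35%, an antisense gene). The values of these 6 genes carry that limit.

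IFNg against control asked what IFNg alone did to the lysosomal genes. Of 34, 6 rose and 9 fell, or 44.1%, against 23.6% of all genes tested (13.5% higher and 10.0% lower). The median member changed by -0.11 on the log2 scale, against -0.01 for all genes. Ppt1, which removes palmitate from proteins, and Npc2, which binds freed cholesterol inside the lysosome, rose most, while the sulphatase gene Arsb and the peptidase gene Tpp1 fell most. None of the 7 membrane protein genes and neither transcription factor passed the test.

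Among the genes of protein and lipid turnover, Ppt1 (ENSMUSG00000028657, chromosome 4, 122836242 to 122859175) stood at 712, 749.8 and 777 CPM with IFNg, against 136, 116 and 128 CPM in control. Every IFNg library lay more than 5-fold above every control library, and the log2 fold change was 2.56 ± 0.10 (SE, adjusted p = 1.51e-17). Npc2 (ENSMUSG00000021242, chromosome 12, 84754562 to 84773152) had 1189, 1285 and 1209 CPM with IFNg, against 650.2, 624 and 702 CPM in control, a rise of 0.90 ± 0.11 (adjusted p = 2.06e-07). Npc1, the membrane partner that takes cholesterol from Npc2, was at -0.23 ± 0.13 and did not pass (adjusted p = 0.222). Lipa, the acid lipase that frees cholesterol from its esters, fell to 1109 ± 75.9 CPM with IFNg, against 1428 ± 40.1 CPM in control (-0.37 ± 0.11, adjusted p = 0.0144). Tpp1, a peptidase that trims tripeptides, had 229, 207 and 256 CPM with IFNg, against 404, 350.4 and 405 CPM in control. Its groups did not overlap and it fell, at -0.74 ± 0.10 (adjusted p = 2.92e-06). Grn, the progranulin gene, averaged 6377 ± 526 CPM with IFNg and 5716 ± 562 CPM in control and did not pass (0.16 ± 0.11, adjusted p = 0.372).

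In the sphingolipid pathway 2 rose and 4 fell of 8. Psap had 16989, 19664 and 19215 CPM with IFNg, against 10919, 11962 and 12752 CPM in control, with all IFNg libraries above all control libraries (0.65 ± 0.11, adjusted p = 4.56e-05). Asah1, the acid ceramidase, rose by 0.50 ± 0.15. Falls were seen for Hexa, the alpha subunit of beta-hexosaminidase that clears gangliosides, at -0.43 ± 0.10, for the sulphatide sulphatase gene Arsa at -0.47 ± 0.16, for the sialidase gene Neu1 at -0.40 ± 0.12 and for the acid sphingomyelinase gene Smpd1 at -0.40 ± 0.14. Gla and Glb1, an alpha- and a beta-galactosidase, did not pass (0.09 and -0.13).

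Of 7 glycosaminoglycan hydrolases, Galns, which acts on keratan sulphate, rose (0.46 ± 0.12) and 2 fell. Arsb, which removes sulphate from dermatan and chondroitin sulphate, had 26.8, 41.1 and 40.3 CPM with IFNg, against 70.3, 85.5 and 66.1 CPM in control. The groups did not overlap, and the change was -1.04 ± 0.22 (adjusted p = 0.000518). Gusb, the beta-glucuronidase, had 656, 652 and 691 CPM with IFNg, against 955, 937 and 963 CPM in control, also without overlap (-0.51 ± 0.10, adjusted p = 0.000172). Among enzymes of glycoprotein and glycogen breakdown, the alpha-mannosidase gene Man2b1 rose by 0.33 ± 0.10 and the glycogen-cleaving Gaa fell, at -0.32 ± 0.12.

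With RPKM library totals 3 members rose and 14 fell, against 6 and 9 under TMM, and 10.4% of all genes were then higher and 15.5% lower, with a median of -0.17. Asah1, Galns and Man2b1 then no longer passed, while Cd63, Glb1, Idua, Npc1 and Sgsh became lower, and the median member was at -0.26. Without control library 3 the calls numbered 9 (4 higher and 5 lower). Man2b1 was not called without control library 1 or 2 or IFNg library 3, Asah1 without IFNg library 1 or control library 2 or 3, Galns without control library 3, and Lipa without IFNg library 1. Arsa was not called without control library 1 or 3 or IFNg library 2, Smpd1 without control library 2 or 3 or IFNg library 2, and Neu1 without control library 3 or IFNg library 2 or 3. Gaa lost its call when any 1 of IFNg libraries 1, 2 and 3 or control libraries 2 and 3 was left out. Psap, Npc2, Ppt1, Hexa, Gusb, Tpp1 and Arsb kept theirs under every alternative run.

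**Figure D2:**
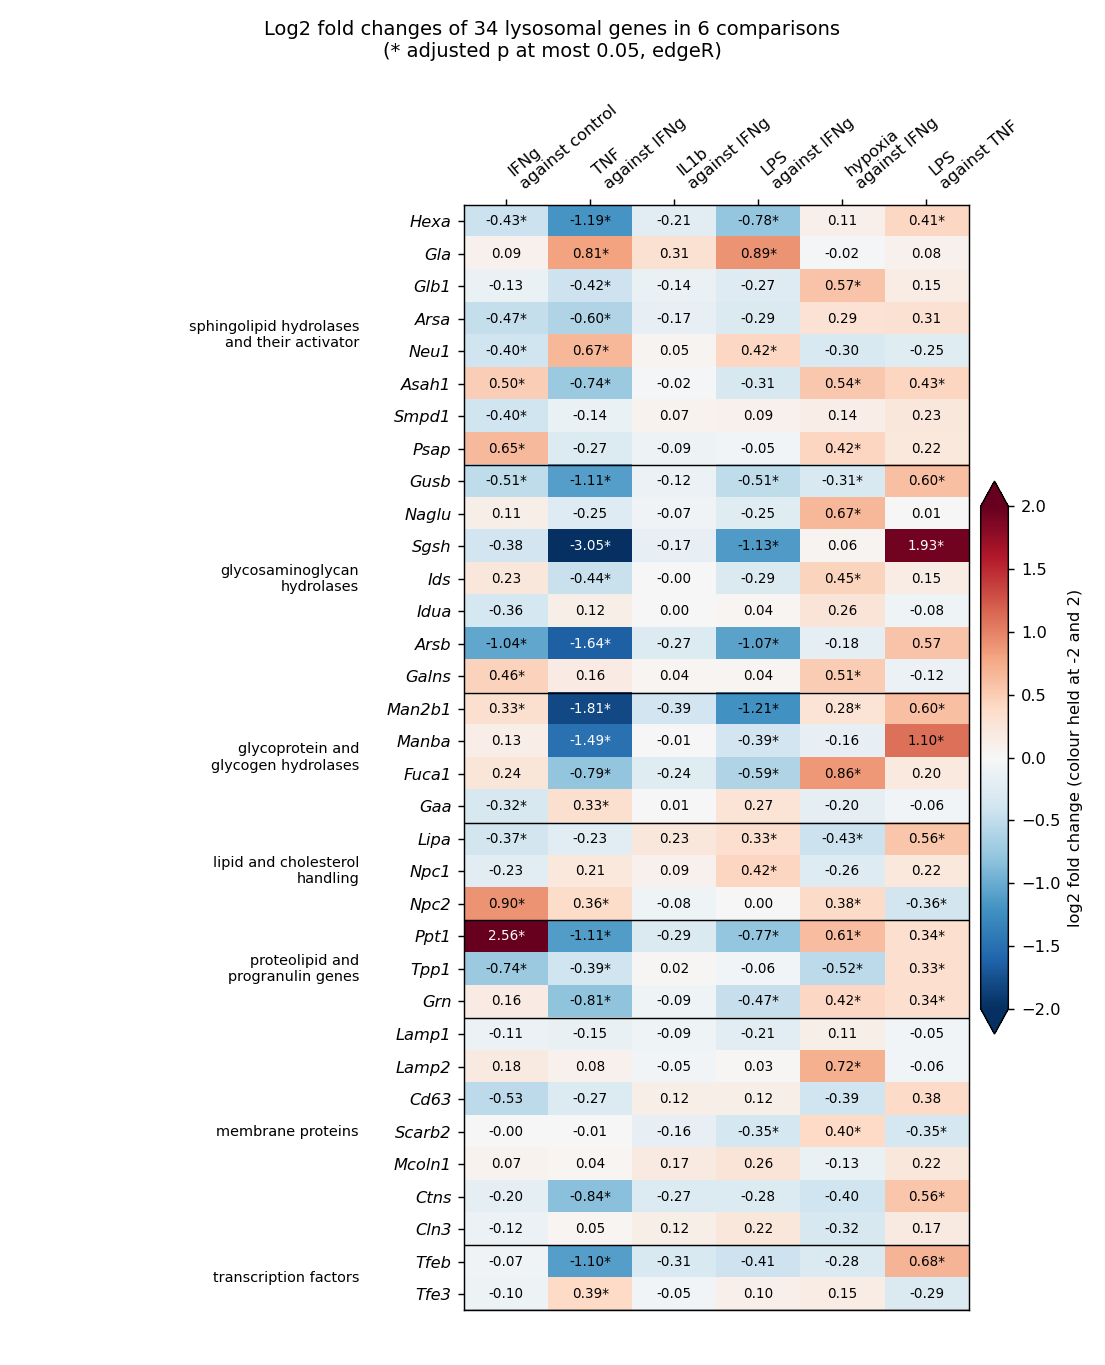
Log2 fold changes of the 34 genes (rows, grouped by role) in the 6 comparisons (columns, the group named first over the group named second); an asterisk marks an adjusted p of at most 0.05. The TNF column holds the deepest falls, led by Sgsh at -3.05, the IL1b column has no asterisk, and in the membrane protein rows Ctns with TNF (-0.84) and Lamp2 with hypoxia (0.72) are the deepest colours.

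TNF added to IFNg lowered many of the hydrolase genes and Tfeb, and under TMM 6 of the 7 membrane protein genes did not pass the test. Of 34 genes, 16 fell and 5 rose, or 61.8%, against 44.7% of all genes tested (22.6% lower and 22.1% higher). Whether the 5 rises of 34 differed from the 22.1% of all genes was not tested. The median member changed by -0.27, against -0.05 for all genes. The falls ran from -3.05 to -0.39 on the log2 scale. The largest were in enzymes that digest glycosaminoglycans and the sugars of glycoproteins: Sgsh, Man2b1, Arsb and Manba.

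Sgsh (ENSMUSG00000005043, chromosome 11, 119343425 to 119355536), which removes N-linked sulphate from heparan sulphate, had 7.72, 4.86 and 5.26 CPM with TNF, against 45.1, 57.9 and 46.3 CPM with IFNg. The highest TNF library was more than 5-fold below the lowest IFNg library, and the change was -3.05 ± 0.20 (adjusted p = 1.18e-12). Arsb (ENSMUSG00000042082, chromosome 13, 93771630 to 93943016) had 11.4, 11.96 and 11.2 CPM with TNF, against 26.8, 41.1 and 40.3 CPM with IFNg (-1.64 ± 0.23, adjusted p = 9.15e-07). Gusb had 295, 319 and 315 CPM with TNF, against 656, 652 and 691 CPM with IFNg (-1.11 ± 0.10, adjusted p = 4.24e-10). In each of these 3 genes all TNF libraries lay below all IFNg libraries. Ids, the iduronate sulphatase, fell as well (-0.44 ± 0.13), while Idua, the iduronidase (0.12), Naglu (-0.25) and Galns (0.16) did not pass.

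All 4 genes of glycoprotein and glycogen breakdown changed. Man2b1 (ENSMUSG00000005142, chromosome 8, 85083270 to 85098282), which cleaves alpha-linked mannose, had 628, 646 and 641 CPM with TNF, against 2198, 2197 and 2328 CPM with IFNg (-1.81 ± 0.10, adjusted p = 3.68e-14). Manba (ENSMUSG00000028164, chromosome 3, 135485611 to 135571404), which cleaves the beta-linked mannose left behind, had 45.1, 41.4 and 38.5 CPM with TNF, against 102, 124 and 126 CPM with IFNg (-1.49 ± 0.13, adjusted p = 1.55e-10). Neither gene's groups overlapped. Fuca1, the fucosidase, fell at -0.79 ± 0.11. Gaa, the acid alpha-glucosidase, rose to 206 ± 22.03 CPM with TNF, against 164 ± 5.15 CPM with IFNg (0.33 ± 0.12, adjusted p = 0.0268).

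The sphingolipid genes split, with 4 lower and 2 higher of 8. Hexa (ENSMUSG00000025232, chromosome 9, 59539540 to 59565109) had 598, 598 and 592 CPM with TNF, against 1317, 1325 and 1427 CPM with IFNg (-1.19 ± 0.10, adjusted p = 7.79e-11). Asah1, Arsa and Glb1 fell, at -0.74 ± 0.15, -0.60 ± 0.16 and -0.42 ± 0.11. Gla (ENSMUSG00000031266, chromosome X, 134588149 to 134601125), which removes the terminal galactose of globotriaosylceramide, went the other way, with 314, 357 and 377 CPM with TNF, against 170.2, 189.8 and 239 CPM with IFNg. Its TNF libraries all lay above its IFNg libraries (0.81 ± 0.13, adjusted p = 1.15e-05). Neu1 rose to 129 ± 6.20 CPM with TNF, against 80.9 ± 7.67 CPM with IFNg (0.67 ± 0.12). Psap had 13941, 14715 and 17799 CPM with TNF, against 16989, 19664 and 19215 CPM with IFNg, groups that overlapped (-0.27 ± 0.11, adjusted p = 0.0506). Psap was called lower by DESeq2, with the replicate number as a block and without IFNg library 1 or TNF library 3.

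Ppt1 had 353, 349 and 334 CPM with TNF, against 712, 749.8 and 777 CPM with IFNg, without overlap (-1.11 ± 0.09, adjusted p = 1.72e-10). Grn fell to 3648 ± 401 CPM with TNF, against 6377 ± 526 CPM with IFNg (-0.81 ± 0.12), and Tpp1 fell at -0.39 ± 0.10. Npc2 rose to 1579.8 ± 222 CPM with TNF, against 1228 ± 50.4 CPM with IFNg (0.36 ± 0.11), and Lipa (-0.23) and Npc1 (0.21) did not pass.

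Of the 7 membrane protein genes only Ctns passed: this exporter of cystine fell to 21.3 ± 1.68 CPM with TNF, against 38.1 ± 3.90 CPM with IFNg (-0.84 ± 0.19, adjusted p = 0.000549). Lamp1 and Lamp2 encode the main glycoproteins of the lysosomal membrane. Lamp1 had 2351, 2709 and 3062 CPM with TNF, against 2611, 3493 and 2938 CPM with IFNg (-0.15 ± 0.12, adjusted p = 0.328), and Lamp2 had 1294, 1853 and 1659 CPM with TNF, against 1443, 1600.2 and 1492 CPM with IFNg (0.08 ± 0.14, adjusted p = 0.664). In both, the groups overlapped. The tetraspanin gene Cd63 had 185, 100.3 and 171 CPM with TNF, against 176, 169 and 204 CPM with IFNg (-0.27 ± 0.24, adjusted p = 0.394). Scarb2, which carries glucocerebrosidase to the lysosome, the calcium channel gene Mcoln1 and Cln3 lay between -0.01 and 0.05.

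Both transcription factors changed, in opposite directions. Tfeb (ENSMUSG00000023990, chromosome 17, 47737030 to 47792419) had 30.9, 33.98 and 23.5 CPM with TNF, against 62.4, 66.5 and 60.6 CPM with IFNg, without overlap (-1.10 ± 0.17, adjusted p = 5.14e-06). Tfe3 (ENSMUSG00000000134, chromosome X, 7762560 to 7775202) had 156, 198 and 175 CPM with TNF, against 121, 151 and 132 CPM with IFNg (0.39 ± 0.12, adjusted p = 0.00717), and this rise did not pass with RPKM library totals (0.07). Their relative Mitf, from a list of regulators of these factors, rose to 153 ± 12.1 CPM with TNF, against 51.5 ± 4.86 CPM with IFNg (1.57 ± 0.15). Flcn, the folliculin gene whose product keeps Tfeb and Tfe3 in the cytoplasm, fell to 22.6 ± 3.83 CPM with TNF, against 51.3 ± 6.83 CPM with IFNg (-1.18 ± 0.20).

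With RPKM library totals 2 members rose and 23 fell in TNF against IFNg, and the median member was at -0.59. Of all genes, 14.6% were then higher and 34.5% lower, with a median of -0.37, so the whole table moved in the same direction. Gla and Neu1 stayed higher, Gaa, Npc2 and Tfe3 did not pass, and Cd63, Lamp1, Lipa, Naglu, Psap, Scarb2 and Smpd1 became lower, so the count of membrane proteins called depends on the scaling. Gaa lost its call without IFNg library 1 or 3 or TNF library 2 or 3, Tfe3 without IFNg library 1 or TNF library 2, Npc2 without TNF library 3, and Ids without TNF library 2. The other 15 falls held under every alternative run.

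**Figure D3:**
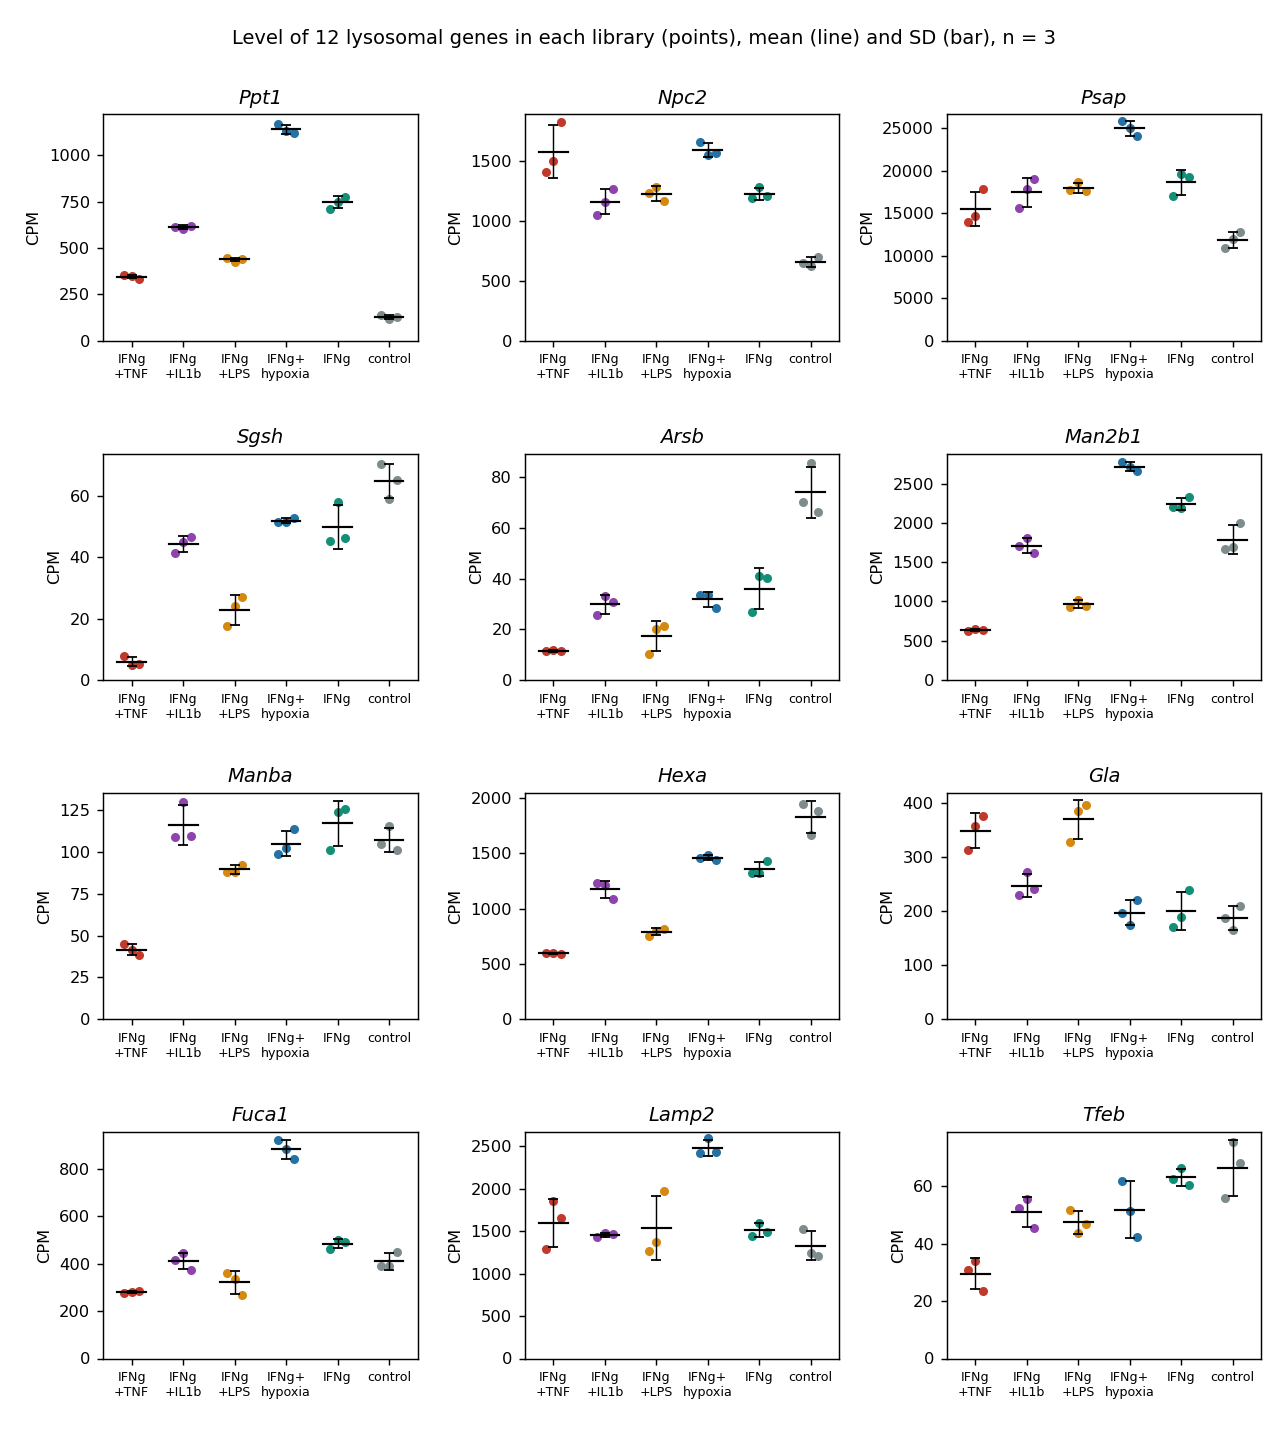
CPM of 12 genes in each library (points), with the mean (line) and SD (bar) of 3 libraries; groups run from IFNg with TNF at the left to control at the right, and each axis starts at 0. Sgsh is near the floor of its axis with TNF (4.86 to 7.72 CPM) and intermediate with LPS, Ppt1 is lowest in control, and Fuca1 and Lamp2 are highest with hypoxia.

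LPS added to IFNg lowered 10 of the 34 genes and raised 4, or 41.2%, against 20.3% of all genes tested (10.1% lower and 10.2% higher). The median member changed by -0.23, against 0.00 for all genes. The same IFNg libraries served in the TNF, IL1b, LPS and hypoxia comparisons and against control, so these comparisons are not independent. LPS against TNF reuses the libraries of both additions. The largest falls were in Man2b1, Sgsh and Arsb, and the largest rise in Gla.

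Man2b1 had 933, 1024 and 938 CPM with LPS, against 2198, 2197 and 2328 CPM with IFNg, with no overlap (-1.21 ± 0.10, adjusted p = 4.66e-10). Sgsh had 17.6, 23.9 and 26.9 CPM with LPS, against 45.1, 57.9 and 46.3 CPM with IFNg (-1.13 ± 0.18, adjusted p = 3.25e-05). Arsb had 10.3, 20.2 and 21.1 CPM with LPS, against 26.8, 41.1 and 40.3 CPM with IFNg (-1.07 ± 0.22, adjusted p = 0.000637). In all 3 the LPS libraries lay below the IFNg libraries. Hexa had 755, 801 and 816 CPM with LPS, against 1317, 1325 and 1427 CPM with IFNg (-0.78 ± 0.10, adjusted p = 6.25e-07). Ppt1 had 447, 426 and 439 CPM with LPS, against 712, 749.8 and 777 CPM with IFNg (-0.77 ± 0.09, adjusted p = 5.21e-07). Fuca1 (-0.59 ± 0.11), Gusb (-0.51 ± 0.10), Grn (-0.47 ± 0.11), Manba (-0.39 ± 0.12) and Scarb2 (-0.35 ± 0.11) fell as well.

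Gla had 329, 385 and 397 CPM with LPS, against 170.2, 189.8 and 239 CPM with IFNg, all LPS libraries being higher (0.89 ± 0.13, adjusted p = 9.42e-06). Of the genes that free and export cholesterol, Lipa rose to 1394 ± 216 CPM with LPS, against 1109 ± 75.9 CPM with IFNg (0.33 ± 0.11, with overlapping libraries), and Npc1 to 455 ± 66.4 CPM, against 339 ± 35.7 CPM (0.42 ± 0.13), while Npc2 was at 0.00 ± 0.11. Neu1 rose by 0.42 ± 0.12. Tfeb had 51.6, 43.6 and 46.9 CPM with LPS, all 3 below the IFNg libraries, but did not pass (-0.41 ± 0.17, adjusted p = 0.0805). Tfe3 had 139.6, 139 and 153 CPM with LPS (0.10 ± 0.12, adjusted p = 0.636). Among membrane proteins, Lamp1 had 2441, 2606 and 2777 CPM, Lamp2 1269, 1377 and 1972 CPM and Cd63 239.7, 218 and 136 CPM with LPS, at -0.21, 0.03 and 0.12, and none of them passed.

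With RPKM library totals 2 members rose (Gla and Npc1) and 13 fell, with Glb1, Ids and Tfeb added, while 8.32% of all genes were higher and 12.5% lower. Without IFNg library 2 the calls numbered 9 (1 higher and 8 lower). Lipa was not called without LPS library 2 or 3 or IFNg library 1 or 2, Npc1 without LPS library 2 or IFNg library 1 or 2, and Neu1 without LPS library 1 or IFNg library 2 or 3. Manba lost its call without LPS library 1 or 2 or IFNg library 2 or 3, and Scarb2 without LPS library 1 or IFNg library 2 or 3. Gla and the other 8 falls held under every alternative run.

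LPS set directly against TNF, both with IFNg, gave 12 members higher and 2 lower of 34, or 41.2%, against 25.3% of all genes tested (12.2% higher and 13.1% lower). The median member was 0.22 higher with LPS, against 0.02 for all genes. Sgsh, at 22.8 ± 4.78 CPM with LPS and 5.95 ± 1.55 CPM with TNF, differed most (1.93 ± 0.20, adjusted p = 2.50e-08). Manba had 88.2, 88.3 and 92.5 CPM with LPS, against 45.1, 41.4 and 38.5 CPM with TNF (1.10 ± 0.12, adjusted p = 1.35e-07). Tfeb averaged 47.4 ± 4.03 CPM with LPS and 29.4 ± 5.40 CPM with TNF (0.68 ± 0.17, adjusted p = 0.00316). None of these 3 genes overlapped between the groups. Gusb had 450.4, 487 and 467 CPM with LPS, against 295, 319 and 315 CPM with TNF (0.60 ± 0.10). Lipa had 1144, 1511 and 1526 CPM with LPS, against 932, 971 and 936 CPM with TNF (0.56 ± 0.11). Both were higher in every LPS library, as was Man2b1 (0.60 ± 0.10), and Ctns, Asah1, Hexa, Grn, Ppt1 and Tpp1 were higher by 0.33 to 0.56. Npc2 (-0.36 ± 0.11) and Scarb2 (-0.35 ± 0.11) were lower with LPS. Gla, which rose against IFNg with both LPS and TNF, differed by 0.08 ± 0.13 and did not pass (adjusted p = 0.696), and Arsb at 0.57 ± 0.22 did not pass either (adjusted p = 0.0633). With RPKM library totals 24 members were higher with LPS, Gla (0.33) and Arsb (0.82) among them, and 0 lower. Of all genes, 22.7% were then higher and 7.65% lower, with a median of 0.26. In a fit to these 6 libraries alone 8 were higher and 0 lower, and without TNF library 3 there were 9 higher and 0 lower. The calls of Sgsh, Man2b1, Tfeb, Lipa, Hexa, Gusb, Manba and Ppt1 held under every alternative run. Asah1, whose libraries overlapped, lost its call with the replicate number as a block and without TNF library 1 or 3 or LPS library 3. Ctns and Grn lost theirs without TNF library 1 or 3 or LPS library 2 or 3, Tpp1 without TNF library 3 or LPS library 2, Npc2 without TNF library 3, and Scarb2 without TNF library 3 or LPS library 1.

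Hypoxia added to IFNg raised more of these genes than it lowered under TMM. Of 34, 13 rose and 3 fell, or 47.1%, against 25.2% of all genes tested (13.5% higher and 11.8% lower), and the median member changed by 0.13, against -0.01 for all genes. With RPKM library totals 5 members were higher and 12 lower with a median of -0.12. All genes moved as well under that scaling, to 7.68% higher and 22.2% lower with a median of -0.26. Rescaling shifts members and all genes by nearly the same amount. The gap between their medians is therefore kept by construction and is no check on the scaling. The 5 rises called under both scalings, and under every other alternative run, were Fuca1, Lamp2, Naglu, Ppt1 and Glb1. No rise reached 2-fold.

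Fuca1 (ENSMUSG00000028673, chromosome 4, 135920735 to 135940311) had 922, 884 and 843 CPM with hypoxia, against 462, 502 and 492 CPM with IFNg (0.86 ± 0.11, adjusted p = 1.11e-06, or 0.62 with RPKM library totals). Lamp2 (ENSMUSG00000016534, chromosome X, 38401357 to 38456454), whose product lines the lysosomal membrane and takes part in chaperone-mediated autophagy, had 2420.0, 2595 and 2439.6 CPM with hypoxia, against 1443, 1600.2 and 1492 CPM with IFNg (0.72 ± 0.14, adjusted p = 0.000312, or 0.47). Naglu, which removes N-acetylglucosamine from heparan sulphate, had 346, 368 and 294 CPM with hypoxia, against 216, 195 and 222 CPM with IFNg (0.67 ± 0.12, adjusted p = 0.000122, or 0.43). In these 3 genes every hypoxia library lay above every IFNg library. Ppt1 had 1167, 1131 and 1118 CPM with hypoxia, against 712, 749.8 and 777 CPM with IFNg (0.61 ± 0.09, adjusted p = 1.52e-05, or 0.37). Glb1 had 390.4, 399.5 and 345 CPM with hypoxia, against 247, 249 and 271 CPM with IFNg (0.57 ± 0.11, adjusted p = 0.000293, or 0.32). Ppt1 and Glb1 did not overlap between the groups either.

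Asah1 had 1048, 1209.7 and 1233 CPM with hypoxia, against 860.5, 741 and 800.4 CPM with IFNg (0.54 ± 0.15, adjusted p = 0.00863). Psap had 25854, 25030.3 and 24069 CPM with hypoxia, against 16989, 19664 and 19215 CPM with IFNg (0.42 ± 0.11, adjusted p = 0.00504). Galns, Ids, Grn, Scarb2, Npc2 and Man2b1 rose by 0.28 to 0.51. None of these 8 rises passed with RPKM library totals, where Asah1 was at 0.29 and Psap at 0.18. Tpp1 fell to 161 ± 4.77 CPM with hypoxia, against 231 ± 24.3 CPM with IFNg (-0.52 ± 0.11), Lipa fell to 823 ± 55.5 CPM, against 1109 ± 75.9 CPM (-0.43 ± 0.11), and Gusb fell at -0.31 ± 0.10. Gusb lost its call without IFNg library 3 or hypoxia library 3. Man2b1 lost its call whichever 1 of the 6 libraries was left out, Ids without IFNg library 1 or hypoxia library 2, and Grn without IFNg library 1. Tfeb had 61.9, 51.3 and 42.2 CPM with hypoxia (-0.28 ± 0.17, adjusted p = 0.232) and Tfe3 153, 159 and 135 CPM (0.15 ± 0.12, adjusted p = 0.4). Lamp1 had 3306, 3188 and 3292 CPM (0.11 ± 0.12) and Cd63 144, 141 and 132 CPM with hypoxia (-0.39 ± 0.24). None of these 4 passed under TMM. Under RPKM library totals Cd63 (-0.64), Tfeb (-0.53), Cln3, Ctns, Gaa, Manba, Mcoln1, Neu1 and Npc1 were also called lower, and in a fit to the 2 groups Cd63, Cln3 and Npc1 were.

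IL1b added to IFNg changed none of the 34 genes in edgeR's test, where 0.303% of all genes were called (0.268% higher and 0.0346% lower). Their log2 fold changes ran from -0.39 to 0.31 with a median of -0.06, against 0.00 for all genes. Of the 34, 6 had an unadjusted p under 0.05, and the share of all genes at that cut was not computed. Man2b1 had 1708, 1810.0 and 1615 CPM with IL1b, against 2198, 2197 and 2328 CPM with IFNg, 3 libraries that all lay lower, but with an adjusted p of 0.115 (-0.39 ± 0.10). Ppt1 had 613, 599 and 620.1 CPM with IL1b (-0.29 ± 0.09, adjusted p = 0.373). DESeq2 called both of them lower, and edgeR with the replicate number as a block called Man2b1. Under RPKM library totals 0 members were called, while 0.303% of all genes were higher and 0.0432% lower. Tfeb had 52.4, 55.6 and 45.4 CPM with IL1b (-0.31 ± 0.17, adjusted p = 1), Tfe3 129, 126 and 134 CPM (-0.05) and Psap 15566, 17796 and 18964 CPM (-0.09). Lamp1 had 2494, 2738 and 3245 CPM, Lamp2 1434, 1479 and 1468 CPM and Cd63 199.8, 199.9 and 198 CPM with IL1b, at -0.09, -0.05 and 0.12.

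The genes followed in every group that were not called for IFNg against control had these levels. Tfeb had 62.4, 66.5 and 60.6 CPM with IFNg, against 56.04, 75.3 and 67.9 CPM in control (-0.07), and Tfe3 121, 151 and 132 CPM, against 155, 144 and 132 CPM (-0.10). Lamp1 had 2611, 3493 and 2938 CPM with IFNg, against 2986, 3614 and 3188 CPM in control, and Lamp2 1443, 1600.2 and 1492 CPM, against 1530.2, 1247 and 1213 CPM. Cd63 had 176, 169 and 204 CPM with IFNg, against 188, 238 and 366 CPM in control. In all 5 genes the groups overlapped. The log2 fold changes of Lamp1, Lamp2 and Cd63 were -0.11 ± 0.12, 0.18 ± 0.14 and -0.53 ± 0.24, and Cd63, with an adjusted p of 0.125, was called lower with RPKM library totals, by DESeq2 and without control library 1.

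Other genes of the compartment were read from 7 lists. In what follows each pair of counts is higher then lower, first under TMM and then, in brackets, with RPKM library totals. The all-gene shares, in the same order, were 13.5% and 10.0% (10.4% and 15.5%) for IFNg against control. Against IFNg they were 22.1% and 22.6% (14.6% and 34.5%) for TNF and 10.2% and 10.1% (8.32% and 12.5%) for LPS. For hypoxia against IFNg they were 13.5% and 11.8% (7.68% and 22.2%), and for LPS against TNF 12.2% and 13.1% (22.7% and 7.65%). Whether a list differed from these shares was not tested. Of 24 further hydrolases and cofactors, 6 and 5 (6 and 6) were called with IFNg against control, 4 and 12 (4 and 14) with TNF, 5 and 7 (4 and 9) with LPS and 7 and 5 (5 and 7) with hypoxia, each against IFNg, and 10 and 2 (14 and 0) with LPS against TNF. With IL1b the 1 call in any list was a fall of Naaa. Naaa, which breaks down fatty acid ethanolamides, averaged 591 ± 42.8 CPM with IFNg and 76.2 ± 5.85 CPM in control (2.95 ± 0.11). It fell to 81.6 ± 3.52 CPM with TNF (-2.86 ± 0.11) and 182 ± 17.3 CPM with LPS (-1.69 ± 0.11), against 591 ± 42.8 CPM with IFNg, and with IL1b the change was -0.51 ± 0.11. Plbd1, a phospholipase B-like gene, rose to 200.4 ± 6.24 CPM with IFNg, against 8.25 ± 2.04 CPM in control (4.60 ± 0.17), and to 860.4 ± 32.3 CPM with hypoxia (2.10 ± 0.15). Hyal1, a hyaluronidase, rose with TNF (2.34 ± 0.42), LPS (1.40 ± 0.42) and hypoxia (2.52 ± 0.43), and averaged 4.84 ± 3.29 CPM with IFNg.

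Of 15 cathepsins and other lysosomal proteases, 4 and 5 (3 and 7) were called with IFNg against control, 4 and 7 (3 and 10) with TNF, 5 and 4 (3 and 5) with LPS and 7 and 0 (6 and 2) with hypoxia, each against IFNg, and 3 and 2 (10 and 1) with LPS against TNF. Ctsc, the activator of granule serine proteases, rose to 4555 ± 67.4 CPM with IFNg, against 389 ± 33.4 CPM in control (3.55 ± 0.11). Lgmn, the asparagine-specific legumain, fell to 473 ± 70.5 CPM with TNF, against 1713 ± 194 CPM with IFNg (-1.86 ± 0.13). Ctsh rose with hypoxia to 2560.4 ± 62.9 CPM, against 1177 ± 49.7 CPM with IFNg (1.12 ± 0.11).

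The proton pump that acidifies the lysosome had 16 subunits tested. Of these, 1 and 5 (1 and 7) were called with IFNg against control, 7 and 2 (2 and 5) with TNF, 5 and 0 (4 and 0) with LPS and 0 and 2 (0 and 6) with hypoxia, each against IFNg, and 3 and 1 (6 and 0) with LPS against TNF. The TNF counts under the 2 scalings stand against all-gene shares of 22.1% higher and 22.6% lower under TMM, and 14.6% higher and 34.5% lower with RPKM library totals. Atp6v1c1 rose with LPS to 175 ± 15.2 CPM, against 106 ± 6.68 CPM with IFNg (0.73 ± 0.11), and Atp6v0d2 fell to 5.75 ± 0.304 CPM with IFNg, against 44.3 ± 8.26 CPM in control (-2.94 ± 0.41).

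Of 23 other lysosomal membrane proteins, 7 and 3 (6 and 6) were called with IFNg against control, 4 and 8 (3 and 13) with TNF, 3 and 3 (3 and 5) with LPS and 8 and 2 (3 and 7) with hypoxia, each against IFNg, and 6 and 3 (10 and 1) with LPS against TNF. Slc15a3, a peptide and histidine transporter, rose to 1283 ± 82.3 CPM with TNF (2.01 ± 0.12) and 704 ± 78.8 CPM with LPS (1.15 ± 0.11), against 317 ± 18.6 CPM with IFNg. Tpcn1, a gene for an ion channel of endosomes and lysosomes, fell to 48.6 ± 5.04 CPM with TNF, against 200.4 ± 11.1 CPM with IFNg (-2.04 ± 0.12), and Clcn7, the chloride-proton exchanger, rose with IFNg against control (1.91 ± 0.11). Of 11 genes for mannose 6-phosphate tagging and sorting, 2 and 1 (2 and 2) were called with IFNg against control, 2 and 7 (2 and 7) with TNF, 2 and 1 (2 and 2) with LPS and 1 and 4 (0 and 7) with hypoxia, each against IFNg, and 3 and 1 (5 and 1) with LPS against TNF. M6pr, a receptor that carries tagged hydrolases, rose to 546 ± 27.1 CPM with TNF, against 221 ± 37.98 CPM with IFNg (1.31 ± 0.11), and Gnptg, a subunit of the tagging enzyme, fell to 9.99 ± 0.810 CPM, against 28.4 ± 2.38 CPM (-1.51 ± 0.24). Among 19 regulators of Tfeb and Tfe3, 0 and 4 (0 and 6) were called with IFNg against control, 2 and 4 (1 and 11) with TNF, 2 and 0 (1 and 1) with LPS and 2 and 3 (0 and 5) with hypoxia, each against IFNg, and 4 and 1 (8 and 0) with LPS against TNF. Among 13 genes for fusion and tethering, 0 and 0 (0 and 3) were called with IFNg against control, 2 and 4 (1 and 8) with TNF, 1 and 0 (1 and 1) with LPS and 1 and 4 (0 and 4) with hypoxia, each against IFNg, and 3 and 0 (5 and 0) with LPS against TNF. Atp6v0c, Atp6v0e2, Atp6v1g1, Lamp3 and Lamtor3 were listed but fell below the filter on low counts, and Vamp7 was not matched.

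**Figure D4:**
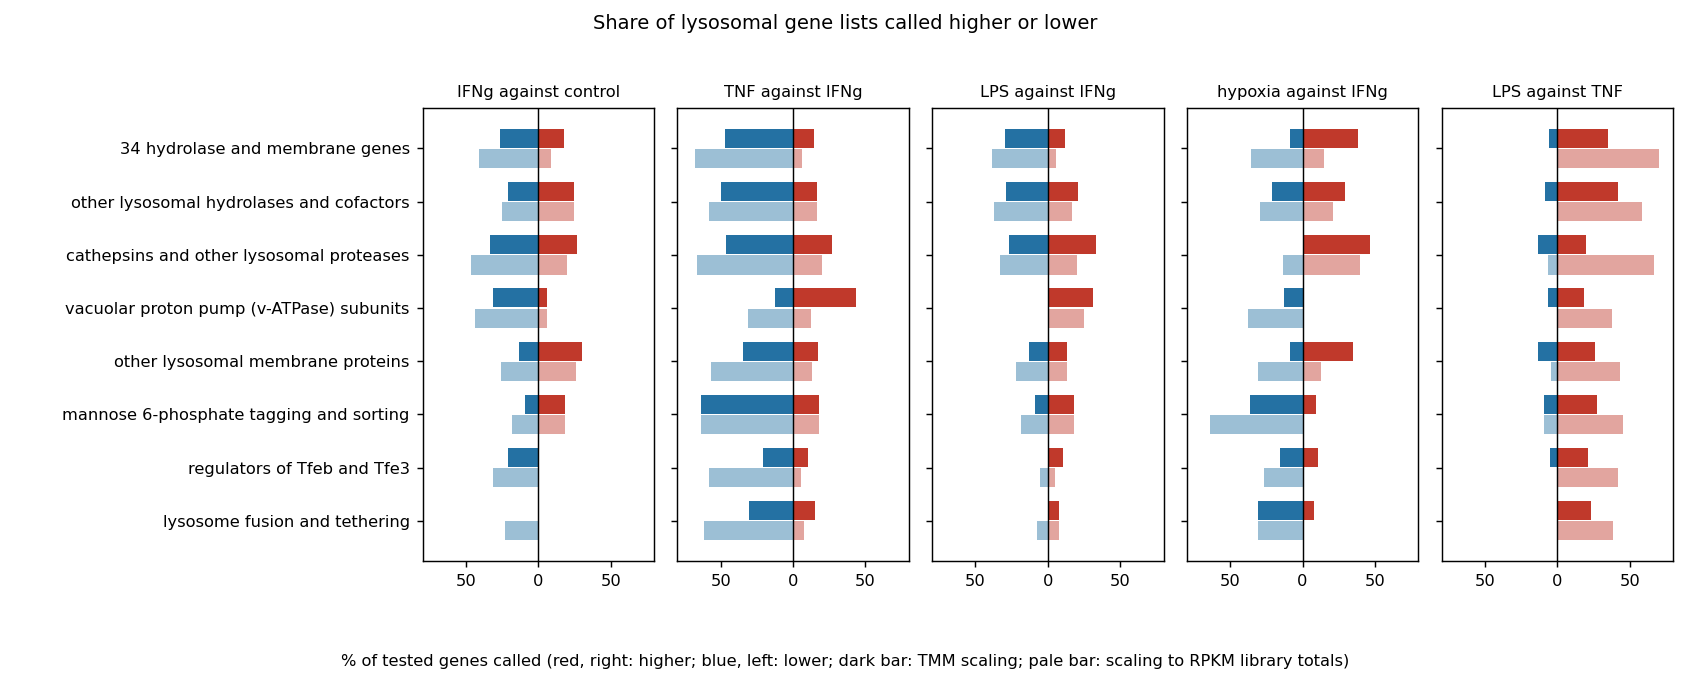
Share of the tested genes of each list called higher (right) or lower (left) in 5 comparisons, under TMM (dark bars) and under RPKM library totals (pale bars). With TNF the 34 genes and every list except the proton pump had more genes lower than higher under both scalings. All genes stood at 22.1% higher and 22.6% lower under TMM, and 14.6% and 34.5% with RPKM library totals. Some lists are small, with 4 lower of 19 regulators and 4 of 13 fusion genes under TMM. Whether a list differed from the all-gene shares was not tested. The pale bars are shifted as the whole gene table is under that scaling.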

How the data were processed

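RNA sequencing libraries of mouse bone-marrow-derived macrophages were prepared by a strand-specific mRNA method and sequenced as single reads, per the labels' protocols. Reads were aligned with GSNAP to mm10, per the submitters' processing notes; no source used here names the counter or its strand setting. The deposited counts are the authors' raw reads per gene, and the deposited RPKM values scale them to a mostly coding width and to library totals of 22728833 to 39859629 reads. RPKM values were used for levels between genes and for those totals.

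Gene identifiers were matched to symbols and mm10 positions through GENCODE M21 (22457 of 22598). Genes passing filterByExpr were tested with edgeR 4.0.16 (R 4.3.3; TMM, robust glmQLFit, glmQLFTest) in 1 model of 6 group means over 18 libraries; standard errors are the log2 fold change divided by the root of F. The fit was tested on simulated data, where it recovered 131 of 200 genes changed 2-fold among 11319 for IFNg against control, with 6 false calls. Few genes changed there and rises and falls were equal in number, so it does not test the choice of scaling. Alternatives were DESeq2 1.42.0, its size factors, RPKM totals, no filter, 2 groups only, a replicate block and leaving out each library. Genes and lists were chosen with earlier results of these data known. All members could be named; values in every library are given for up to 6 called members with the largest change in a comparison and for Tfeb, Tfe3, Lamp1, Lamp2, Cd63 and Psap, and 2 genes at most per list and comparison. The result of 1 list of cell markers is not reported here.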

Additional observations from a re-analysis of the deposited data

How the results depend on the processing

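Counts of called members under the alternatives other than leaving out a library were 14 to 17 for IFNg against control, 21 to 25 for TNF, 0 to 2 for IL1b, 12 to 15 for LPS and 15 to 19 for hypoxia against IFNg, and 8 to 24 for LPS against TNF. For IL1b, DESeq2 called 2 members and the replicate block 1, and over all genes DESeq2 called 79 and a fit to the 2 groups 68, against 35. For LPS against TNF, 24 members were called with RPKM library totals and 8 in a fit to the 2 groups, against 14. Leaving out 1 library at a time gave 9 to 14 members for IFNg against control, 18 to 21 for TNF, 0 for IL1b, 9 to 14 for LPS, 13 to 16 for hypoxia and 9 to 14 for LPS against TNF, and 15 to 35 genes over the whole table for IL1b. The cause was not tested. No called member changed sign under any alternative. Of 204 member values, 36 gained and 18 lost a call with RPKM library totals, 0 changed with DESeq2 size factors, 5 gained with DESeq2, 1 gained and 2 lost without the filter, and 3 gained and 9 lost with 2 groups only. The replicate numbers of the titles were fitted as a block: 4 calls of a fall were gained (Psap and Lipa with TNF, Man2b1 with IL1b and Neu1 with hypoxia, each against IFNg) and 1 was lost. Deviations of same-numbered libraries correlated at -0.06 to 0.23, over 0.1 in 4 of 18 pairs. These values lay above all differently numbered ones for IFNg against control (0.054 to 0.071, against -0.038 to -0.018). They also did for LPS (0.040 to 0.102, against -0.057 to -0.003) and hypoxia (0.009 to 0.039, against -0.031 to 0.008) against IFNg. In the other comparisons the ranges overlapped. With the block, more genes were called higher and more lower in every comparison. The main model did not use the numbers, and whether they pair the samples was not tested. The RPKM values themselves were not tested. Depth limits the precision of low genes: Sgsh with TNF had 139, 74 and 67 counts.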
